A study of Mus musculus with 16 samples.

Results

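The fatty acid desaturases and elongases described here are 9 genes of primary mouse hepatocytes, chosen by symbol, with earlier results of these data known: the desaturases *Fads1*, *Fads2*, *Fads3*, *Fads6* and *Scd2* and the elongases *Elovl1*, *Elovl2*, *Elovl3* and *Elovl5*. Each symbol matched 1 of the 55450 genes in the count table, and all 9 were among the 11675 genes that reached a mean of 1 CPM (read count scaled to the library total) over the libraries. Hepatocytes from the livers of wild-type, young adult male C57BL/6J mice were cultured overnight in complete medium with fetal bovine serum and either left untreated or given 10 mM sodium itaconate, lipid (a chemically defined mixture at a 10-fold dilution) or both. The undiluted mixture held 2 ug/mL arachidonic acid, 0.22 mg/mL cholesterol and, at 10 ug/mL each, stearic, palmitic, oleic, myristic and linoleic acid. RNA of each of the 4 groups was sequenced in 4 libraries, named by the replicate letters A to D. The labels do not say whether the letters are separate animals, so the p-values measure only the spread between these libraries.

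Fatty acid desaturases put double bonds into fatty acyl chains, with electrons that reach them through cytochrome b5 and its reductases. Elongases of the Elovl family carry out the first, condensing step of a cycle in the endoplasmic reticulum that lengthens a fatty acyl-CoA. In the liver, Fads2 acts on linoleic and alpha-linolenic acid, Elovl5 lengthens the product, and Fads1 then makes arachidonic and eicosapentaenoic acid, the supply of which is known to be under feedback from dietary polyunsaturated fatty acids and from the SREBP transcription factors. The lipid mixture therefore held both a substrate of this pathway, linoleic acid, and an end product, arachidonic acid.

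The *Fads* cluster and the *Scd* genes share a chromosome. In GENCODE release M21 on GRCm38, *Fads3* (ENSMUSG00000024664.5) spans chr19:10041569-10060110 on the plus strand, *Fads2* (ENSMUSG00000024665.8) chr19:10062765-10101746 on the minus strand, and *Fads1* (ENSMUSG00000010663.5) chr19:10182888-10196877 on the plus strand. *Fads3* and *Fads2* are 2654 bases apart, and *Fads2* and *Fads1*, which point away from each other, 81141. *Scd2* (ENSMUSG00000025203.6, chr19:44293674-44306864, plus strand) lies farther along, 87590 bases from *Scd1*, and *Elovl3* (ENSMUSG00000038754.5, chr19:46131897-46135694, plus strand) beyond both. The other members are *Fads6* (ENSMUSG00000044788.10, chr11:115279622-115297663, minus strand), *Elovl1* (ENSMUSG00000006390.15, chr4:118428093-118432953, plus strand), *Elovl2* (ENSMUSG00000021364.16, chr13:41182381-41220405, minus strand) and *Elovl5* (ENSMUSG00000032349.13, chr9:77917364-77984519, plus strand). *Elovl1* shares 53 exon bases with *Cdc20* and *Elovl3* 10 with *Pitx3*, both on the opposite strand, and the exons of *Scd2* hold the 61 bases of *Mir5114*. The library kit keeps the strand, but the strand setting of the counting was not given in the sources used here.

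RefSeq promoter sequences of GRCm38.p6, reaching from 250 bases before to 50 bases after an annotated RefSeq start, were matched for 6 of the 9 members (8 windows). *Fads1*, *Scd2* and *Elovl3* were not matched. The windows given here are those of a member that fell in both lipid comparisons (*Fads2*), one that rose (*Fads6*), one that fell slightly (*Elovl1*) and one whose change did not pass the test (*Elovl5*). Capitals mark the letters of the motifs that were searched for on both strands, the Sp1 box GGGCGG, the NF-Y box CCAAT, the E-box CACGTG and the nuclear receptor half-site AGGTCA, each also as its reverse complement.
Fads2 (chr19:10101454-10101753, minus strand): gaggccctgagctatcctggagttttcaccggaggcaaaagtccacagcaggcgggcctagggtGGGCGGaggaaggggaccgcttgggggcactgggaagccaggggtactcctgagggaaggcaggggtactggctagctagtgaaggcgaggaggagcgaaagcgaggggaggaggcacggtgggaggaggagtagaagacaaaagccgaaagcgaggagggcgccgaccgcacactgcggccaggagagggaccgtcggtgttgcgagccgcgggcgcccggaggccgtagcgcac
Fads6 (chr11:115297513-115297812, minus strand): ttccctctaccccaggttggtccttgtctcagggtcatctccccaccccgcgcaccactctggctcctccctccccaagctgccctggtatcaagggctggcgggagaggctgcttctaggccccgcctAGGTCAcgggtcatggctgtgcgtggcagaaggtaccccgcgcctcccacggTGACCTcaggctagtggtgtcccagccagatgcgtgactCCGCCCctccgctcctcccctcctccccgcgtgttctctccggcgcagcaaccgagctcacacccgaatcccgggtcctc
Elovl1 (chr4:118427843-118428142, plus strand): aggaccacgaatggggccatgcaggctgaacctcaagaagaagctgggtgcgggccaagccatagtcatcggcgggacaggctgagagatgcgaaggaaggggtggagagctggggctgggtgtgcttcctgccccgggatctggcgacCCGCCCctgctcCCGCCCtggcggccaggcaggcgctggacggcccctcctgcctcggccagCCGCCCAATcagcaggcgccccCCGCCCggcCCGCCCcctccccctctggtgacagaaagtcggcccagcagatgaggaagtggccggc
Elovl5 (chr9:77917115-77917414, plus strand): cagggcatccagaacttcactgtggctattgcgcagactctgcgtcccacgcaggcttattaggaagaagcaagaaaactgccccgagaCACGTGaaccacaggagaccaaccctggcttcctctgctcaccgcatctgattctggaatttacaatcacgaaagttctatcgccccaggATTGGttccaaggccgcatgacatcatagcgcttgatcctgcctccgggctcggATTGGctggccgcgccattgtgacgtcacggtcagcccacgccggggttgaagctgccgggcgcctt

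The *Fads2* window held 1 Sp1 box and no other motif of the search. That of *Fads6* held 1 Sp1 box and 2 nuclear receptor half-sites, and the one of *Elovl1* shown 5 Sp1 boxes and 1 NF-Y box, which overlaps an Sp1 box. A second *Elovl1* window (chr4:118429451-118429750) held 2 Sp1 boxes and 1 half-site. The *Elovl5* window held 2 NF-Y boxes and 1 E-box. Of 32851 mouse promoter windows of the same length, 35.7% held a Sp1 box, 37.4% an NF-Y box, 7.15% an E-box and 16.3% a half-site. The sterol regulatory element searched for, TCACNCCAC, was in 1.24% of them and in none of the 8 windows of the members, which says only that these letters are not in these 300 bases.

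The libraries held 22346049 to 35512004 expected counts each, of which 3.27 to 6.01% were mitochondrial. Every member was counted in every library, from 41.55 counts for *Scd2* in lipid + itaconate replicate B to 15427 for *Fads1* in an itaconate library. Of 8 hepatocyte markers, 7 were in the table and passed the filter, with a summed level of 29646 to 54188 CPM. The 9 macrophage markers summed to 159 to 328 CPM (7 passed), 8 stellate cell and fibroblast markers to 16.3 to 25.6 CPM (1 passed), 6 endothelial markers to 11.2 to 22.6 CPM (5 passed) and 5 cholangiocyte markers to 336 to 1171 CPM (2 passed). The cholangiocyte sum was nearly all *Spp1* and *Sox9*, while *Krt7*, *Krt19* and *Epcam* stayed under the filter and *Krt7* was at 0 in every itaconate and lipid library. In bulk RNA, fewer cells of a type and less RNA per cell cannot be told apart.

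Among the 9 genes, the polyunsaturated fatty acid desaturases had the highest levels in untreated hepatocytes. Per kilobase of exon, *Fads2* stood at 136 ± 10.5 CPM (SD, n = 4) and *Fads1* at 93.3 ± 9.85 CPM, above *Elovl2*, an elongase of the longer polyunsaturated chains, at 48.4 ± 4.96 CPM. Below them were *Elovl5*, the elongase between the steps of Fads2 and Fads1, at 32.5 ± 3.55 CPM per kilobase and *Elovl1*, an elongase of very long saturated chains, at 28.5 ± 1.37. The ranges of *Elovl5* and *Elovl1* overlapped. *Elovl3*, which also lengthens saturated and monounsaturated chains, *Fads3*, a desaturase of sphingoid bases, and *Fads6*, whose substrate is not settled, lay between 7.56 and 8.75 CPM per kilobase, with ranges that overlapped from each to the next. *Scd2*, which makes monounsaturated from saturated fatty acids, was lowest at 1.86 ± 0.302 CPM per kilobase, against 998.8 for its close relative *Scd1*. All other pairs of neighbours in this order had ranges that did not overlap. The order rests on the merged length of all annotated exons, which may differ from that of the transcripts expressed. *Fads2* (3295 bases) and *Fads1* (4812 bases) stood at 447 and 449 CPM before the division by length. Levels from here on are CPM per gene, not divided by length.

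**Figure D1:**
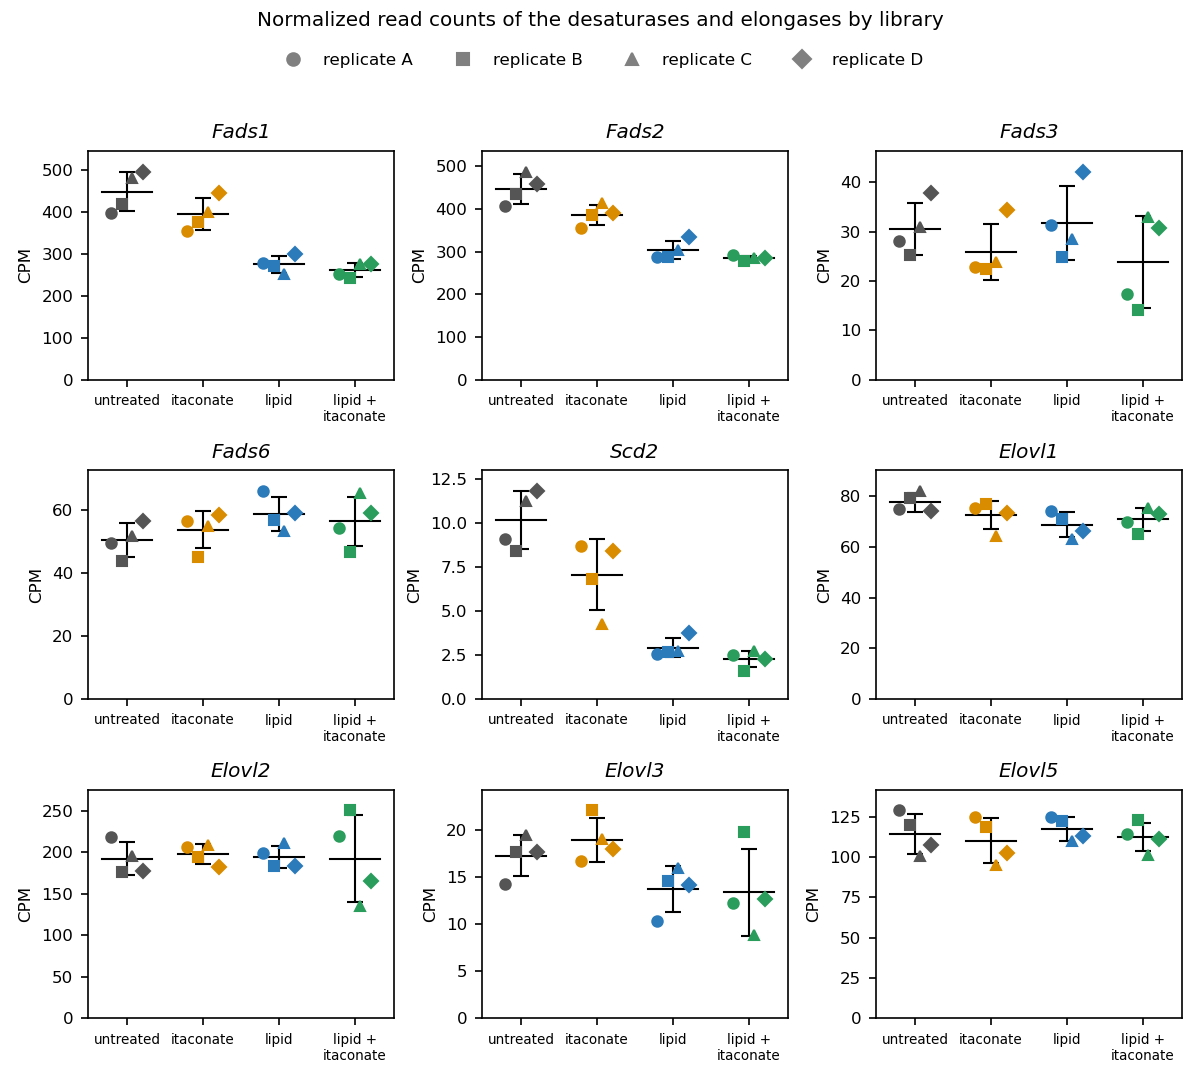
Normalized read counts (CPM, linear axis from 0) of the 9 desaturases and elongases in the 16 libraries, by treatment. Points are libraries with 1 symbol for each replicate letter, the horizontal line is the mean of the 4 libraries and the bar is the SD; *Fads1*, *Fads2* and *Scd2* are the genes whose untreated and lipid libraries do not overlap.

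The lipid comparison asks how the cells' own desaturases and elongases differed after the lipid mixture was added. The labels name no library given the carrier of the mixture alone, so its parts cannot be told apart. *Fads1*, *Fads2* and *Scd2* fell, *Elovl1* fell slightly and *Fads6* rose slightly, so that 5 of the 9 genes passed the test between lipid-treated and untreated hepatocytes. Over all 11675 genes tested, 47.5% were called (23.8% higher and 23.7% lower with lipid), so 5 of 9 in itself is near the background. Their median log2 fold change was −0.18, against 0.0047 over all genes. The groups did not overlap for 3 of the 9 genes, against 32.5% of all genes tested.

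*Fads1* stood at 399, 419, 481 and 497 CPM in untreated replicates A, B, C and D and at 278, 270, 252 and 300 CPM in the lipid-treated ones. Every lipid library lay below every untreated one. The log2 fold change was −0.70 (SE 0.055, 95% interval −0.82 to −0.58, adjusted p = 1.27e-07), which leaves 61.5% of the untreated level, and the fall was seen in 4 of 4 letters.

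*Fads2* read 406, 435, 488 and 459 CPM in the untreated libraries A to D, and 288, 288, 304 and 333 CPM with lipid. Again the groups were apart. Its log2 fold change was −0.56 (SE 0.050, 95% interval −0.67 to −0.45, adjusted p = 4.47e-07), or 67.9% of the untreated level. The count of *Fads1* was 1.00 ± 0.054 times that of *Fads2* in untreated (SD, n = 4), 1.02 ± 0.079 times in itaconate-treated, 0.909 ± 0.060 times in lipid-treated and 0.922 ± 0.056 times in lipid + itaconate-treated hepatocytes. The ratio of these neighbouring genes ran from 0.828 to 1.14 over all 16 libraries. It was 0.964 to 1.08 in untreated and 0.828 to 0.966 in lipid-treated libraries. No 50-base stretch of *Fads1* exons occurs in another gene, and 0.152% of those of *Fads2* occur in another gene, *Fads3*.

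*Scd2* had the largest fall of the 9 genes. Its untreated libraries A to D held 9.14, 8.42, 11.3 and 11.8 CPM, and its lipid libraries 2.56, 2.67, 2.72 and 3.75 CPM. The lowest untreated library was above the highest lipid library. The log2 fold change was −1.80 (SE 0.19, 95% interval −2.20 to −1.40, adjusted p = 2.16e-06), which leaves 28.7% of the level, and only 0.197% of the genes tested had a lower log2 fold change. *Scd1*, the abundant stearoyl-CoA desaturase of liver, changed by −0.29 (SE 0.077, adjusted p = 0.00513), from 4886 ± 1026 to 4047 ± 1127 CPM. Of the 50-base stretches of *Scd2* exons, 3.97% occur in other genes, most often in *Scd1* (145 of 217) and *Scd3* (136). The counts of *Scd2* were 0.221% of those of *Scd1* in untreated and 0.0778% in lipid-treated hepatocytes, so that a small share of *Scd1* reads placed on *Scd2* would weigh on its level, and this was not tested.

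The slight changes were nearer the spread. *Elovl1* had 75.1, 79.4, 82.1 and 74.0 CPM in untreated replicates A to D and 74.3, 70.9, 63.3 and 66.1 CPM in the lipid ones. It was lower in 4 of 4 letters, but the highest lipid library was above the lowest untreated one. The log2 fold change was −0.18 (SE 0.067, adjusted p = 0.0369), and the call was lost without untreated replicate B (adjusted p = 0.0851) or C (0.149), or without lipid replicate B (0.0503), C (0.128) or D (0.0997).

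*Fads6* was the only member called higher. It had 49.5, 43.6, 51.6 and 56.5 CPM in untreated replicates A to D and 65.9, 56.7, 53.2 and 58.8 CPM with lipid, higher in 4 of 4 letters with overlapping groups. Its log2 fold change was 0.23 (SE 0.075, adjusted p = 0.0214). The call was lost without the replicate letter in the model (adjusted p = 0.112), without untreated replicate A (0.0707), B (0.0524) or C (0.0505), or without lipid replicate A (0.0908) or B (0.101).

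The other elongases and *Fads3* did not pass the test. *Elovl3* had 14.3, 17.7, 19.5 and 17.7 CPM untreated and 10.3, 14.6, 15.9 and 14.2 CPM with lipid in replicates A to D, lower in 4 of 4 letters (log2 fold change −0.33, SE 0.15, adjusted p = 0.0802). It did pass in DESeq2 (adjusted p = 0.0447), with no filter (0.0023), in the fit of 8 libraries (0.0041), and without untreated replicate B (0.0477) or lipid replicate C (0.0357). *Elovl5* gave 0.042 (95% interval −0.054 to 0.14, adjusted p = 0.464), *Elovl2* 0.019 (−0.24 to 0.28, adjusted p = 0.913) and *Fads3* 0.050 (−0.24 to 0.33, adjusted p = 0.785). The elongase between the steps of Fads2 and Fads1 thus had an interval that reached neither of their falls. *Elovl6*, which lengthens palmitic acid and is not a member, gave 0.14 (SE 0.056, adjusted p = 0.0568).

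Markers moved with lipid too. The summed cholangiocyte markers were at 600 to 1171 CPM in untreated and 336 to 609 CPM in lipid-treated libraries. Over all genes tested, 23.7% were called lower and 23.8% higher with lipid. Of the 7 hepatocyte markers tested, 3 were called lower and none higher, with a median log2 fold change of −0.20. Of 7 macrophage markers tested 3 were lower and 1 higher. Their sum, which follows the most abundant of them, was 181 to 289 CPM untreated and 232 to 328 CPM with lipid. The part of any of these in the falls of *Fads1*, *Fads2* and *Scd2* was not tested.

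The same lipid mixture was compared in the presence of itaconate, lipid + itaconate-treated against itaconate-treated hepatocytes. *Fads1*, *Fads2* and *Scd2* fell again and *Elovl3* fell as well, 4 of 9 genes in all, with none higher. Of all genes, 47.0% were called (23.5% higher and 23.5% lower), again near the share of the members. The median log2 fold change was −0.15 for the 9 genes and 0.0041 over all genes. These libraries are not those of the first lipid comparison, but the same 4 letters.

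*Fads1* held 355, 377, 401 and 445 CPM in itaconate replicates A to D and 253, 244, 276 and 277 CPM with lipid added, a log2 fold change of −0.59 (SE 0.055, adjusted p = 1.17e-06). *Fads2* went from 355, 386, 414 and 390 CPM to 291, 278, 284 and 286 CPM, a log2 fold change of −0.44 (SE 0.050, adjusted p = 6.51e-06). For both genes each library with lipid was below every library without it. With *Scd2*, the groups were apart for 3 of the 9 genes, against 31.4% of all genes tested. *Scd2* held 8.70, 6.84, 4.29 and 8.42 CPM with itaconate and 2.48, 1.62, 2.74 and 2.25 CPM with both, and its log2 fold change was −1.62 (SE 0.19, adjusted p = 9.92e-06). Itaconate replicate C was the low one of its group for *Scd2*, yet it too was above all lipid + itaconate libraries.

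*Elovl3* changed by −0.51 (SE 0.15, adjusted p = 0.0104), lower in 4 of 4 letters, from 16.7, 22.1, 19.1 and 17.96 CPM to 12.3, 19.8, 8.84 and 12.7 CPM in replicates A to D. The groups overlapped, since lipid + itaconate replicate B stayed high. Its log2 fold change ran from −0.70 without lipid + itaconate replicate B to −0.32 without replicate C of that group, and it passed the test in all 15 alternatives. In this comparison 5 of 7 hepatocyte markers were called lower and 1 higher (median −0.20), against 23.5% lower and 23.5% higher over all genes tested. Of 7 macrophage markers 6 were lower and 1 higher (median −0.77), but their sum was 159 to 245 CPM with itaconate and 215 to 320 CPM with both. The higher sum follows the marker that rose, not the set. The 2 cholangiocyte markers tested were lower (median −0.53). The part of these in the falls of the 4 genes was not tested.

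*Fads6* gave a log2 fold change of 0.068, *Elovl5* 0.034, *Elovl1* −0.032, *Elovl2* −0.053 and *Fads3* −0.15, with adjusted p between 0.382 and 0.751. The rise of *Fads6* and the fall of *Elovl1* with lipid alone were thus not called here. Whether lipid acted differently with and without itaconate was tested as an interaction. It passed for 1 of all 11675 genes (0.00857%) and for 0 of the 9 members in edgeR's quasi-likelihood test, with 0 at an unadjusted p under 0.05 and 0 in DESeq2 and limma-trend. The intervals of the interaction were −0.049 to 0.28 for *Fads1*, −0.027 to 0.27 for *Fads2* and −0.40 to 0.76 for *Scd2* on the log2 scale. Each includes 0, and that of *Scd2* is the widest. The estimates of *Fads1* and *Fads2* were both 0.12, above 0 in 4 of 4 letters. A sizeable difference is within the error for *Scd2*. It is also within the error for *Fads1* and *Fads2*, beside their lipid changes without itaconate (−0.70 and −0.56).

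**Figure D2:**
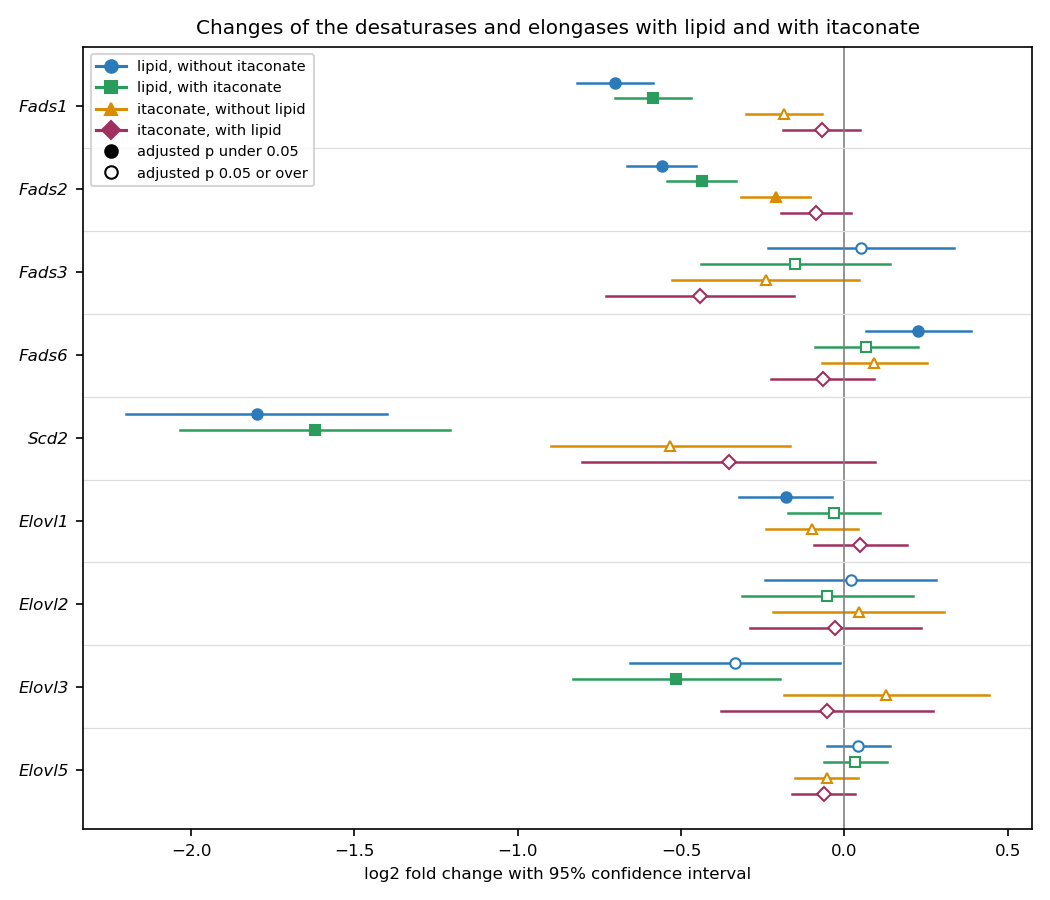
Log2 fold changes (horizontal axis) of the 9 genes with their 95% confidence intervals in 4 comparisons, lipid without and with itaconate and itaconate without and with lipid. Filled symbols passed an adjusted p of 0.05; the lipid changes of *Fads1* (−0.70 and −0.59), *Fads2* (−0.56 and −0.44) and *Scd2* (−1.80 and −1.62) lie left of 0 in both comparisons.

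Itaconate alone, against untreated hepatocytes, gave 1 call among the 9 genes, the fall of *Fads2*. Over all genes, 4.91% were called (1.96% higher and 2.95% lower). The log2 fold change of *Fads2* was −0.21 (SE 0.050, 95% interval −0.32 to −0.10, adjusted p = 0.0245), with all 4 letters lower by 0.17 to 0.24, although the groups overlapped. Without the replicate letter in the model the adjusted p was 0.176. It was also 0.0804, 0.0652 and 0.0881 without itaconate replicate A, C or D and 0.0673, 0.0935 and 0.0647 without untreated replicate B, C or D.

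*Fads1*, *Fads2* and *Scd2*, which fell in both lipid comparisons, had estimates below 0 with itaconate alone as well. So did *Fads3*, *Elovl1* and *Elovl5*. The estimate of *Elovl3*, which fell with lipid in the presence of itaconate, was above 0, as were those of *Elovl2* and *Fads6*. *Fads1* changed by −0.19 (SE 0.055, adjusted p = 0.0629) and *Scd2* by −0.53 (SE 0.17, adjusted p = 0.0876), neither of which passed, and both were lower in 4 of 4 letters. For *Scd2* the letters ran from −0.071 to −1.39, the latter in replicate C, and without itaconate replicate C the estimate was −0.31. When only the 8 libraries of the comparison were fitted, or with no filter on low genes, *Fads1*, *Fads2*, *Fads3* and *Scd2* were all called lower (4 of 9). Calls over all genes then changed too, to 15.9% in the fit of 8 libraries and 4.34% of the more numerous genes tested with no filter. *Fads3* gave −0.24 (adjusted p = 0.319), *Elovl1* −0.099 (0.409), *Elovl5* −0.055 (0.509), *Elovl2* 0.044 (0.872), *Fads6* 0.092 (0.501) and *Elovl3* 0.13 (0.653). The comparison shares its untreated libraries with the lipid comparison, so the shared direction is given only as values side by side.

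On top of lipid, itaconate gave no call among the 9 genes in edgeR's quasi-likelihood test, with 1 at an unadjusted p under 0.05, and DESeq2 called 1. Of all genes, 2.58% were called (1.32% higher and 1.26% lower), a number that moved from 301 to 59 without lipid + itaconate replicate A and to 891 without replicate C of that group. The gene in question was *Fads3*, at 31.2, 24.8, 28.5 and 42.2 CPM in lipid replicates A to D and 17.4, 14.2, 32.9 and 30.7 CPM with both. Its log2 fold change was −0.44 (SE 0.14, adjusted p = 0.0947), lower in 3 of 4 letters. Leaving out lipid + itaconate replicate C gave −0.67 (adjusted p = 0.00047). *Scd2* gave −0.35 (SE 0.21, 95% interval −0.80 to 0.094), *Fads2* −0.087 (−0.19 to 0.019) and *Fads1* −0.069 (−0.19 to 0.048).

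Several members split the lipid + itaconate group by letter. *Elovl2* held 219, 250, 135 and 165 CPM in replicates A to D of that group, an SD of 52.1 CPM against 12.5 to 19.7 CPM in the other groups. *Fads3* was low where *Elovl2* was high, and *Elovl3* was highest in replicate B and lowest in C, as was *Elovl2*. The summed hepatocyte markers of these libraries were 50223, 42687, 29646 and 34885 CPM in the order A to D, and their part in the split was not tested. *Scd1*, too, had 4808 and 5455 CPM in replicates A and B and 2412 and 2683 CPM in C and D, but it was higher in A and B than in C and D in every group.

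The desaturases and elongases were then set beside the genes that work with them, in lists drawn from general knowledge with earlier results of these data known. Over all genes tested, 23.8% were called higher and 23.7% lower with lipid, and 23.5% each way with lipid in the presence of itaconate. The counts in the lists, here and below, are to be read beside those shares. Of 9 further members of the families, 4 passed the filter, and 3 of them fell with lipid, *Elovl7* (−0.38), *Scd1* (−0.29) and *Degs1*, the desaturase that makes ceramide (−0.18). In the presence of itaconate *Elovl7* (−0.35), *Scd1* (−0.29) and *Degs1* (−0.14) fell with lipid, and *Elovl7* also fell with itaconate alone (−0.26, adjusted p = 0.0214). With no replicate letter in the model, none of these calls on the further family members remained (0 in each comparison). Of the enzymes that complete the elongation cycle, 3 of 5 tested fell with lipid and none rose: the dehydratases *Hacd1* (−0.51) and *Hacd3* (−0.25) and the reductase *Hsd17b12* (−0.16). In the presence of itaconate the 2 dehydratases fell (−0.52 and −0.17). Among 5 genes of electron supply, the reductase *Cyb5r1* rose (0.71 and 0.46 without and with itaconate) and *Cyb5b*, a cytochrome b5, fell (−0.47 and −0.41). *Cyb5r1* was lower with lipid + itaconate than with lipid (−0.33, adjusted p = 0.00763), a call that was lost with no replicate letter in the model.

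Genes that supply, finish and place polyunsaturated fatty acids went both ways, with 2 of 12 higher and 6 lower with lipid (median −0.16). *Acsl4*, the acyl-CoA synthetase with a preference for arachidonic acid, fell (−0.47), as did *Agpat3* (−0.24). The acyltransferases *Lclat1* (0.32) and *Mboat7* (0.23) rose. With itaconate present 3 rose and 7 fell, *Lpcat3*, which places arachidonic acid in phospholipids, now among those that rose (0.42).

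SREBP proteins turn on genes of sterol and fatty acid synthesis when membrane sterol is low, and Insig proteins hold them back. With lipid, *Insig1* (−1.38), *Srebf1* (−0.67) and *Srebf2* (−0.47) fell and the protease gene *Mbtps2* rose (0.27), out of 7 genes of SREBP control. With itaconate present, *Insig1* (−1.10), *Srebf1* (−0.55), *Srebf2* (−0.30) and *Mbtps1* (−0.14) fell. Of the 14 sterol-responsive SREBP targets, 11 fell with lipid and 1 rose, with a median of −0.66 against 0.0047 over all genes. *Hmgcs1* (−1.07) and *Lss* (−1.12) were among those that fell, and *Dhcr7*, the last enzyme of cholesterol synthesis, was the gene that rose (0.47). With itaconate present 10 fell and 1 rose (median −0.57).

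Itaconate alone lowered 3 of these 14 targets (against 2.95% of all genes), *Hmgcs1* (−0.39), *Fdps* (−0.25) and *Lss* (−0.35), with a median of −0.26 over the 14. With itaconate alone, a model with no replicate letter called 0 of them, and a fit of only the 8 libraries called 11, with the calls over all genes up from 573 to 1859. *Sqle*, which makes squalene epoxide, did not pass the test with lipid (0.12, adjusted p = 0.292).

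**Figure D3:**
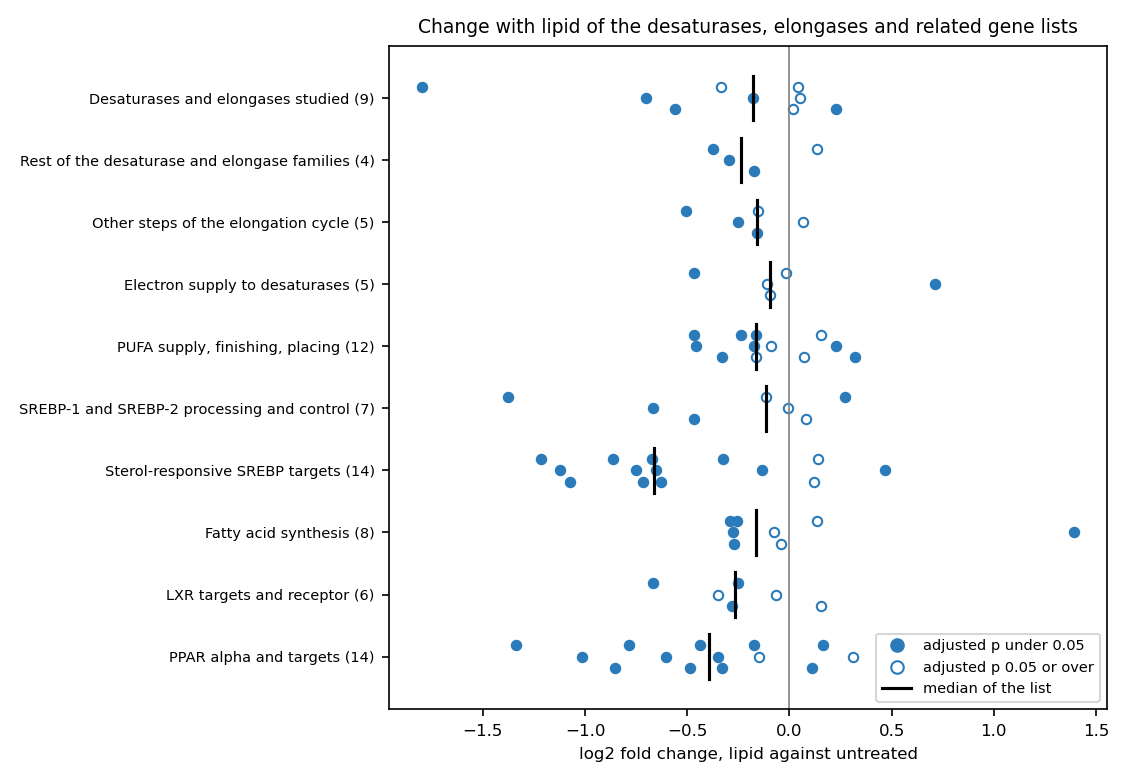
Log2 fold change with lipid against untreated (horizontal axis) for the 9 desaturases and elongases and for 9 related gene lists, 1 point per gene tested, with the number of genes tested in brackets. Filled points passed an adjusted p of 0.05 and the vertical line is the median of a list, which is −0.66 for the sterol-responsive SREBP targets and −0.18 for the 9 genes.

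The genes most alike in pattern were found by Pearson r of log2 CPM over the 16 libraries after the mean of each letter was removed, among 9353 genes that averaged 5 CPM or more. These libraries share treatments and letters, and r is given as a description. The genes nearest to *Scd2* were *Idi1* (0.983), *Fdft1* (0.982) and *Hmgcs1* (0.979), 3 enzymes of the sterol pathway that are also on the SREBP target list. All 3 fell with lipid, *Idi1* by 1.21 on the log2 scale, *Fdft1* by 0.75 and *Hmgcs1* by 1.07, each less than *Scd2*. With both treatments *Scd2* and these genes were lower than with either alone in group mean. Against lipid alone none of these differences passed the test (adjusted p = 0.406 for *Scd2*, 0.280 for *Idi1*, 0.539 for *Fdft1* and 0.462 for *Hmgcs1*). In replicate C, *Scd2*, *Idi1* and *Fdft1* were not lower with both than with lipid.

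*Fads1* was nearest to *Mindy1* and *Irgm2* (both 0.986) and *Bzw2* (0.982), and *Fads2* to *Abcb1b* (0.985), *Tent5a* (0.977) and *Ino80c* (0.977). None of these 6 is on the lists above. Their log2 fold changes with lipid were −0.27 for *Mindy1*, −1.15 for *Irgm2*, −0.90 for *Bzw2*, −0.77 for *Abcb1b*, −0.49 for *Tent5a* and −0.63 for *Ino80c*. *Irgm2*, an immunity-related GTPase, fell with itaconate alone as well (−0.42, adjusted p = 0.00268). Among the members, r was 0.973 between *Fads1* and *Fads2*, 0.954 between *Fads1* and *Scd2* and 0.944 between *Fads2* and *Scd2*, while *Fads3*, the neighbour of *Fads2* on the chromosome, was at 0.249 with *Fads2* and 0.286 with *Fads1*.

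**Figure D4:**
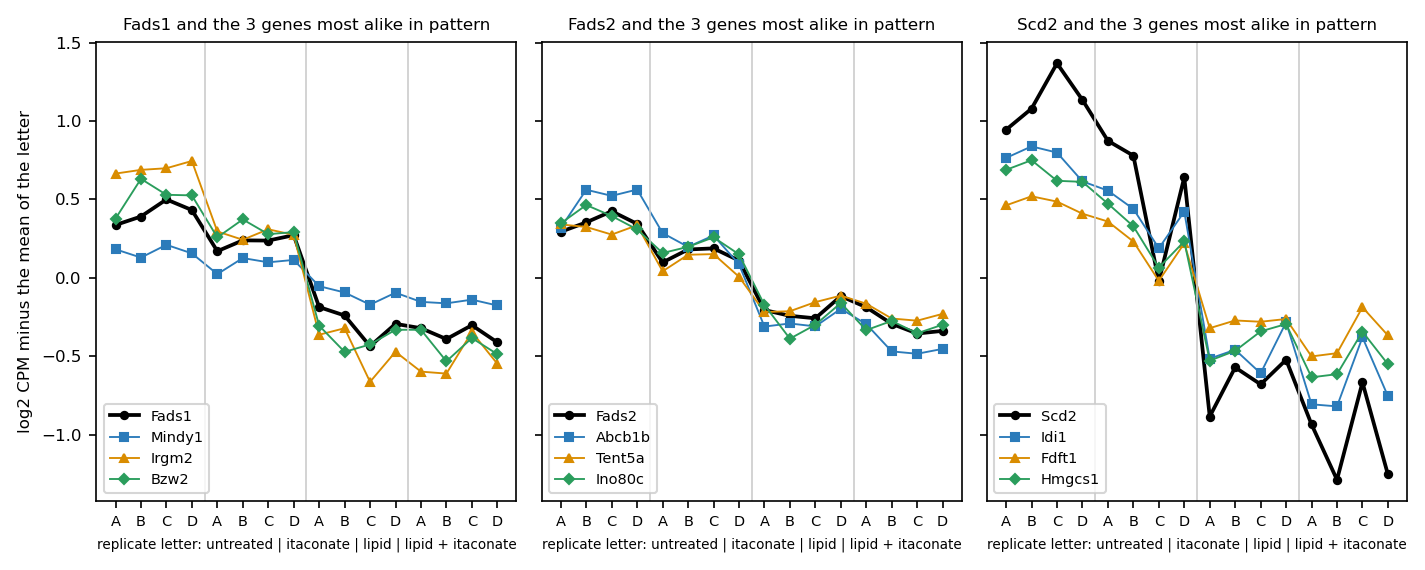
Log2 CPM minus the mean of the replicate letter (vertical axis) in the 16 libraries, in order of treatment and letter, for *Fads1*, *Fads2* and *Scd2* (black) and the 3 genes most alike in pattern to each. All 12 lines drop from the 8 libraries without lipid to the 8 with lipid, and itaconate replicate C is the low point of *Scd2* among the libraries without lipid.

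The elongases had other neighbours. *Elovl3* was nearest to *Phyh*, a peroxisomal enzyme of phytanic acid breakdown (0.985), *Akr1c6* (0.981) and the plasma protein gene *Serpina3k* (0.977). *Elovl2* was nearest to *Thrsp*, a lipogenic gene (0.927), *Ces1f* (0.916) and *Vdac1* (0.900). The highest values of *Elovl1* (*Trp53inp2*, 0.897), *Elovl5* (*Mast3*, 0.941), *Fads3* (*Mtmr11*, 0.913) and *Fads6* (*Fndc4*, 0.938) were lower than those of the members that fell in both lipid comparisons.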

How the data were processed

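RNA of 16 hepatocyte cultures was sequenced from stranded libraries. Per the labels and the study's methods, the authors trimmed reads with Cutadapt 1.18, aligned them to mm10 with STAR 2.7.0f and quantified GENCODE genes with RSEM 1.3.1, and they deposited unnormalized expected counts of genes. RSEM splits reads that match more than 1 gene, so 5.41% of the values had a fractional part.

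After rounding, edgeR 4.0.16 (R 4.3.3, TMM, quasi-likelihood test) was run on the 11675 genes that averaged 1 CPM or more, with group and replicate letter in 1 model and Benjamini-Hochberg adjustment over all genes tested at 0.05. CPM are on TMM-scaled totals (prior count 0.5 for log2 CPM). Alternatives were no replicate letter, median-ratio (RLE) size factors, DESeq2 1.42.0, limma-trend (limma 3.58.1), no filter, filterByExpr, a fit of the 8 libraries compared, and each library left out. On counts simulated for lipid against untreated (11675 genes), the test called 83 of 100 genes changed by 0.5 on the log2 scale. It called 93 of 100 changed by 1, with 5 false calls. Unlike the data, the simulated counts had no letter effect and few changed genes, so these figures may not hold here.

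The letters come from the sample labels. All 24 same-letter pairs of libraries had correlated deviations from their group means (0.143 to 0.468, median 0.263). The 72 pairs of other letter and group ran from −0.435 to 0.178 (median −0.114), and 6 of them were over 0.1. Deviations from a group mean cancel out within the group, which in itself lowers the values of these other pairs. The letter was taken to pair the libraries.

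Members and lists were chosen with earlier results of these data known. Named are all members, *Scd1*, *Elovl6*, from each list the 3 genes called with the smallest p in each direction, and the 3 genes most alike in pattern to a member (mean of at least 5 CPM, own symbol). Other genes named were chosen after their values were seen, and some genes of the lists are not reported here by name. List changes given without a p had an adjusted p under 0.05. Shared sequence was searched in 50-base stretches of GENCODE transcripts.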

Additional observations from a re-analysis of the deposited data

Results flagged for a closer look

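In each of the 36 groups of 4 libraries (9 genes in 4 treatments), the highest and the lowest library were held against the other 3 by Dixon's ratio at the 95% level, and 2 groups exceeded it. Chance alone flags about 1 group in 20. *Fads3* in itaconate replicate D stood at 34.3 CPM, with the other 3 libraries of the group at 22.5 to 23.8 CPM. *Scd2* in lipid replicate D stood at 3.75 CPM, with the other 3 at 2.56 to 2.72 CPM. No cause was tested for either.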

How the results depend on the processing

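The falls of *Fads1*, *Fads2* and *Scd2* with lipid, without and with itaconate, kept their direction and passed the test in all 15 alternatives of each comparison, and the interaction called 0 members in all 22. Of 737 log2 fold changes recomputed for single members, 678 kept their direction and side of the threshold, 18 no longer passed, 16 newly passed and 25 changed direction, and the cause was not tested. The number of members called with lipid (5) was 3 to 5 with a library left out. It was 3 without lipid replicate B or untreated replicate C, 4 without the replicate block and 6 in DESeq2. Calls over all genes with lipid, 5546 in the main model, were 4982 without lipid replicate B, 4801 without untreated replicate C and 5424 in DESeq2. The number called with itaconate alone (1) was 0 without the replicate block and 0 to 1 with a library left out. It was 2 in DESeq2, 4 with no filter and 4 in a fit of the 8 libraries compared. Calls over all genes with itaconate alone were then 791 in DESeq2, 1091 with no filter and 1859 in the fit of 8 libraries. On top of lipid the number (0) was 1 in DESeq2, 1 with no filter and 0 to 1 with a library left out. Calls over all genes on top of lipid were 512 in DESeq2 and 725 with no filter. Without the replicate block the calls over all genes were 4149 in place of 5546 with lipid and 3990 in place of 5483 with lipid in the presence of itaconate. They were 23 in place of 573 for itaconate alone and 9 in place of 301 on top of lipid. Apart from the count with itaconate alone, the block changed no count of members by over 1.5 times. List counts that moved by more without the block were, with lipid, falls of family genes from 3 to 0 and of synthesis genes from 4 to 2, and rises of PPAR alpha genes from 2 to 0 and of sterol targets (*Dhcr7*) from 1 to 0. With lipid in the presence of itaconate, falls went from 3 to 0 for family genes, 2 to 1 for the elongation cycle, 7 to 4 for polyunsaturated fatty acid genes and 5 to 2 for synthesis. With itaconate alone, falls went from 1 to 0 for family genes and 3 to 0 for sterol targets. On top of lipid, falls went from 1 to 0 for electron supply and 2 to 0 for synthesis, and rises from 1 to 0 for PPAR alpha genes. With single libraries left out, calls over all genes on top of lipid numbered 59 to 891, the extremes being replicates A and C given both agents, and calls with itaconate alone numbered 149 to 394. With no filter 25152 genes were tested.

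Directions changed only for estimates smaller than their standard error and only with a library left out, where the log2 fold changes ran as follows. With lipid they ran from −0.025 to 0.14 for *Fads3* and from −0.063 to 0.075 for *Elovl2*. With lipid in the presence of itaconate they ran from −0.019 to 0.11 for *Fads6*, from −0.094 to 0.022 for *Elovl1* and from −0.23 to 0.12 for *Elovl2*. With itaconate alone *Elovl2* ran from −0.028 to 0.084, and on top of lipid *Elovl1* ran from −0.0045 to 0.10, *Elovl2* from −0.21 to 0.14 and *Elovl3* from −0.23 to 0.15. The interaction ran from −0.060 to 0.32 for *Scd2*, −0.26 to 0.099 for *Elovl2*, −0.37 to 0.017 for *Elovl3* and −0.046 to 0.026 for *Elovl5*. Depth limits *Scd2* most, with 41.55 to 332.31 counts a library and standard errors of 0.17 to 0.21 in the pairwise comparisons.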

Other observations

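Fatty acid synthesis, which makes the chains that Scd and Elovl enzymes work on, went both ways with lipid. Of 8 genes tested, *Acaca*, the rate-limiting acetyl-CoA carboxylase, rose (1.39, SE 0.10, adjusted p = 6.65e-08) and 4 fell, among them *Fasn* (−0.29), *Me1* (−0.28) and *Acss2* (−0.27). In the presence of itaconate *Acaca* rose by 0.82 and 5 genes fell, led by *Fasn* (−0.36), *Acacb* (−0.39) and *Acss2* (−0.32). On top of lipid, itaconate lowered *Acaca* (−0.48, adjusted p = 0.0221) and *Acly* (−0.26, adjusted p = 0.0278), and neither was called with no replicate letter in the model. With itaconate alone the smallest adjusted p was that of *Acly* (−0.19, adjusted p = 0.0712).

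Of a list of 14 genes made up of PPAR alpha, a receptor that binds fatty acids, its partner receptor *Rxra* and targets, 10 were lower and 2 higher with lipid (median −0.39). The falls were led by *Pdk4* (−1.34), *Angptl4* (−1.02) and *Plin2* (−0.85), and the genes that rose were *Acadm* (0.16) and *Rxra* itself (0.11). In the presence of itaconate 11 fell. *Pdk4*, a brake on pyruvate oxidation, was higher with lipid + itaconate than with lipid (0.47, adjusted p = 0.0122), a call also lost with no replicate letter. Of 6 genes of the LXR list, which answer to oxysterols, 3 fell with lipid, *Abca1* (−0.28), *Abcg5* (−0.67) and *Nr1h3* (−0.25), and 4 with lipid in the presence of itaconate, where *Lpcat3* rose. The lists overlap, since *Lpcat3* is also on the polyunsaturated fatty acid list and *Elovl6* is on the family and synthesis lists.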
